A study of Mus musculus with 13 samples.

Results

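Transcripts of 44 enzymes and regulators of fatty acid synthesis, fatty acid oxidation and glycerolipid assembly were measured by RNA sequencing in M2 CD4SP thymocytes, the mature CD4 single-positive stage sorted as CD69- and MHC class I+. The 44 genes were taken by name from a list written with earlier results of these data known. All of them were found among the 35906 genes to which the transcripts in the files belong. By role, 11 make fatty acids (synthesis) and 15 bring them into mitochondria or break them down there (oxidation), with *Acaa1a* acting in peroxisomes. A further 10 build or remodel glycerolipids, and 8 are a transcription factor, acyl-CoA synthetases and proteins of lipid handling. Each of the 13 libraries came from 1 mouse. All mice were Rag1-/- and carried the rearranged Lm54 TCR as a transgene, so that thymocytes of both genotypes bear a single receptor, which recognises a peptide of listeriolysin O (LLO) on I-Ab. CtslΔTEC mice lack the protease cathepsin L in thymic epithelial cells through *Foxn1*-cre, and control mice were labelled as carrying Ctsl fl/fl alleles. Cells taken straight from the sort came from 5 CtslΔTEC and 4 control mice, and cells stimulated for 4 h with plate-bound LLO:I-Ab (1 µg/ml) and soluble anti-CD28 (250 ng/ml) came from 2 CtslΔTEC and 2 control mice. Mice were in general 8 to 12 weeks old. The thymocytes themselves keep Ctsl, so the genotype describes the epithelium on which the cells were selected.

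Cells make fatty acids from citrate. ATP citrate lyase (*Acly*) releases acetyl-CoA in the cytosol, acetyl-CoA carboxylase (*Acaca*) turns it into malonyl-CoA and fatty acid synthase (*Fasn*) builds palmitate, which elongases and desaturases then lengthen and bend. Many of these genes are targets of SREBP-1, the product of *Srebf1*. In the opposite direction, the carnitine shuttle (*Cpt1a*, *Slc25a20*, *Cpt2*) carries long-chain acyl groups into mitochondria, where dehydrogenases, hydratases and thiolases remove acetyl-CoA units, and malonyl-CoA blocks the first step of that shuttle. Activated T cells are known for taking up and making lipid for new membranes, whereas resting and memory T cells rely more on oxidation.

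Library totals were 25692380 to 39127833 estimated counts in unstimulated and 8085463 to 27184520 in stimulated cells. *Cd4* was between 327 and 604 TPM (a level scaled for transcript length and library total) in all libraries. Ctsl, which is not deleted in these cells, was 5.41 to 9.03 TPM in unstimulated control and 10.7 to 16.5 TPM in unstimulated CtslΔTEC cells, and therefore does not check the deletion. The sort for CD4 single-positive, CD69- and MHC class I+ thymocytes would remove fat cells, and defining adipocyte genes were at or near 0, with *Cfd* at 0 in every library, *Plin4* at most 0.00698 TPM and *Adipoq* at most 0.341 TPM, and the 12 adipocyte markers summed to between 0.58 and 1.77 TPM. The names of the files carry a date whose meaning is not stated, and the stimulated libraries shared a single date, later than both dates of the unstimulated ones, and no cells were cultured without stimulus, so stimulation, culture and date cannot be told apart. In these bulk samples, fewer cells of a type and less RNA per cell cannot be told apart either.

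In unstimulated control cells, mean levels per transcript length ran from 107 TPM to 0.0152 TPM. *Acly* led with 107 TPM, followed by *Agpat3* (an acyltransferase that makes phosphatidic acid) with 104 TPM and by *Hadha* and *Hadhb*, the subunits of the mitochondrial trifunctional protein, with 93.0 and 82.7 TPM. The first of these steps in the order was within the spread, since *Agpat3* ranged from 93.2 to 115 TPM in the 4 mice and *Acly* from 102 to 115 TPM. The desaturase *Scd2* had a mean of 55.5 TPM, whereas its relative *Scd1*, the main form in liver, was nearly silent with 0 to 5 counts per library. *Mgll*, *Fads2* and *Dgat2* were also below 1 TPM in unstimulated control cells. *Scd1* was too low for any test, and *Mgll* too low for the unstimulated comparison, so 42 members were tested between genotypes in unstimulated cells and 43 in every other comparison.

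Most members changed with stimulation. In control cells 35 of 43 members (81.4%) passed edgeR's quasi-likelihood test at a Benjamini-Hochberg adjusted p under 0.1, 17 higher and 18 lower, where 67.7% of all 14241 genes tested passed it (32.9% higher and 34.8% lower). In CtslΔTEC cells 34 of 43 (79.1%) passed, 13 higher and 21 lower, against 71.2% of all genes (32.9% higher and 38.2% lower). A value after ± beside a log2 fold change is its SE. Of the 43, 13 were called higher and 18 lower in both genotypes, and none was called in opposite directions.

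Among the synthesis genes, *Fasn* rose in both genotypes while *Acly* did not. *Fasn* was 220.2, 203, 224 and 195 CPM (counts scaled to the library total after TMM normalization) in the unstimulated control mice and 763 and 725 CPM in the stimulated ones. In CtslΔTEC mice it was 200.3, 169, 191, 183 and 179 CPM before and 616 and 676 CPM after stimulation. Stimulated and unstimulated libraries did not overlap in either genotype. On the log2 scale *Fasn* rose by 1.87 ± 0.09 (adjusted p = 1.91e-10) in control and 1.86 ± 0.08 (adjusted p = 6.58e-11) in CtslΔTEC cells. *Acly* was 285, 290.5, 276 and 284 CPM before and 269.7 and 257 CPM after stimulation in control cells (log2 fold change -0.06 ± 0.09, adjusted p = 0.572). In CtslΔTEC cells it fell from 304, 244, 252, 273 and 273 CPM to 188 and 179.8 CPM (log2 fold change -0.50 ± 0.09, adjusted p = 0.000157).

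*Srebf1* itself rose less, from 111, 117, 128 and 115 CPM to 156 and 172 CPM in control cells, a log2 fold change of 0.53 ± 0.10 (adjusted p = 0.000211). In CtslΔTEC cells it went from 138, 127, 109.8, 118 and 126 CPM to 149 and 149 CPM, a log2 fold change of 0.32 ± 0.09 (adjusted p = 0.00737). With the retained-intron share as a covariate this CtslΔTEC value was 0.034 (adjusted p = 0.890), and with library totals alone it was 0.173 (adjusted p = 0.122). *Acaca*, the rate-limiting carboxylase, passed the test in control cells, where it went from 34.4, 36.5, 31.3 and 21.6 CPM to 66.6 and 44.7 CPM (log2 fold change 0.88 ± 0.20, adjusted p = 0.00108, and 0.558 without control mouse 5). Its values in CtslΔTEC cells overlapped, with 29.7, 33.6, 39.8, 42.2 and 35.4 CPM before and 34.9 and 35.8 CPM after stimulation (log2 fold change 0.03 ± 0.19, adjusted p = 0.915), and the difference between these responses did not pass the test (interaction -0.86 ± 0.28, adjusted p = 0.119). Of 7 elongases and desaturases tested, 4 fell in both genotypes. *Scd2*, *Elovl5*, *Elovl6* and *Elovl7* were called lower in both, and *Elovl1*, an elongase of saturated very long chains, rose by 1.31 and 1.06 on the log2 scale in control and CtslΔTEC cells. *Fads1*, a desaturase of polyunsaturated chains, was called lower in CtslΔTEC cells (log2 fold change -0.47 ± 0.16, adjusted p = 0.0184) and did not pass in control cells. The CtslΔTEC call was lost with the retained-intron share as a covariate (-0.029, adjusted p = 0.951) and without CtslΔTEC mouse 7. The *Elovl5* call in control cells was lost with that covariate and without control mouse 6 (-0.285, adjusted p = 0.161). *Fads2*, at a few counts, did not pass (log2 fold changes 0.61 and -0.76). *Elovl7* fell most, from 16.6, 17.8, 14.5 and 14.8 CPM to 0.904 and 1.53 CPM in control cells (log2 fold change -3.54 ± 0.20, adjusted p = 1.01e-09), and the desaturase *Scd2* from 246, 228, 258 and 176 CPM to 60.8 and 61.4 CPM (log2 fold change -1.85 ± 0.18, adjusted p = 3.91e-07).

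**Figure D1:**
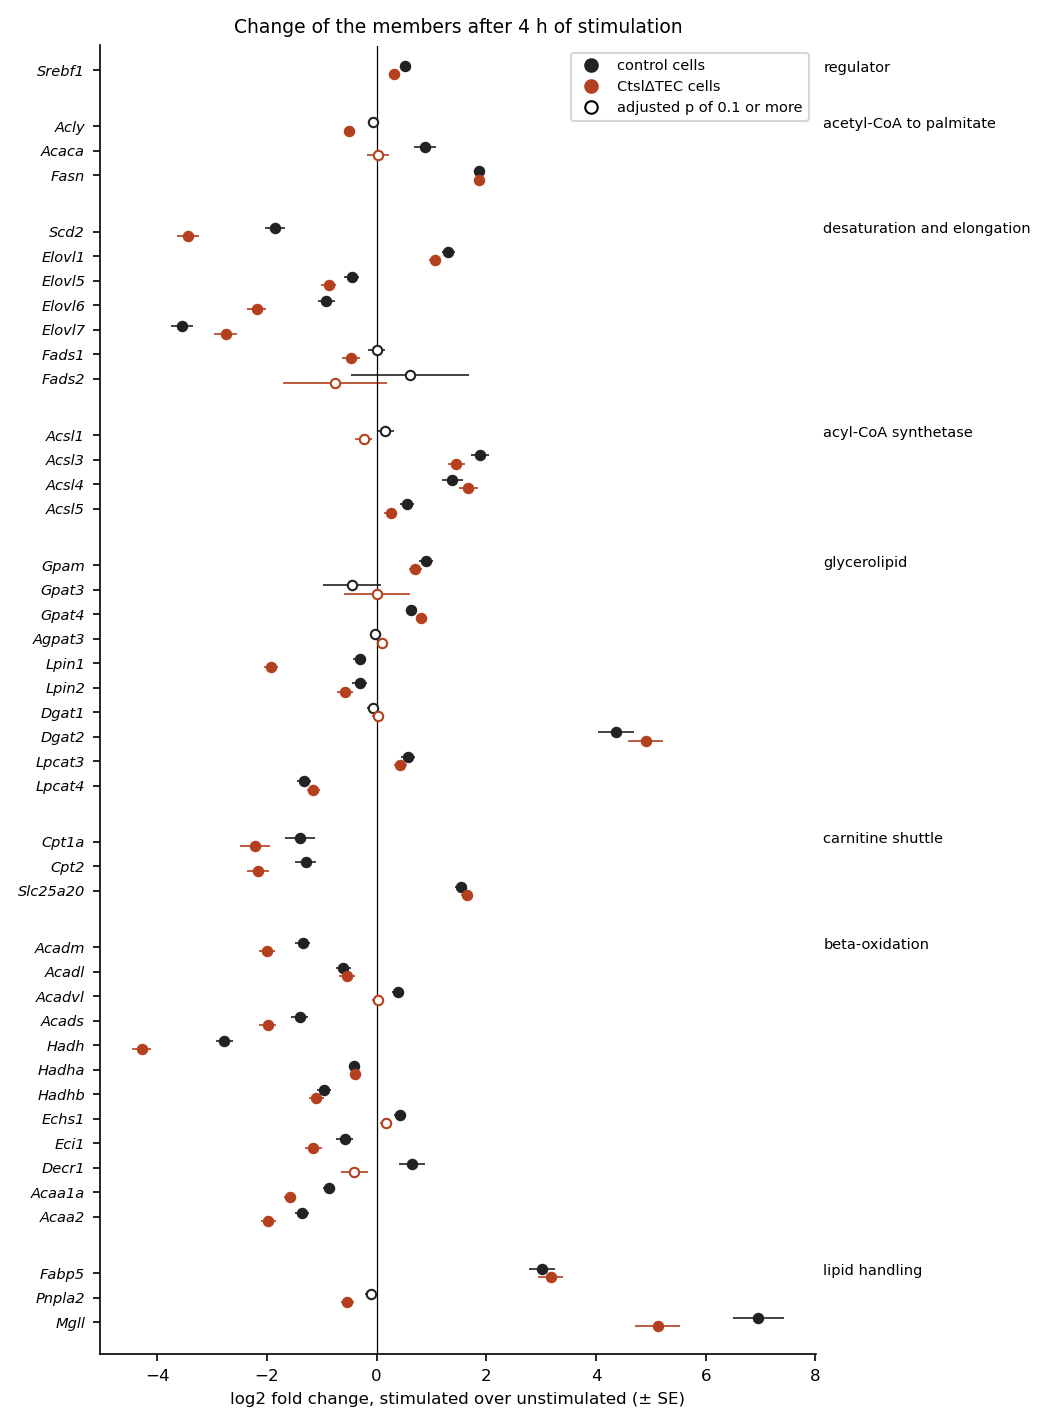
Log2 fold change of 43 members, stimulated over unstimulated, with SE (bars), in control (black) and CtslΔTEC cells (red), ordered by role, where open points did not pass an adjusted p of 0.1. *Fasn*, *Dgat2*, *Fabp5* and *Mgll* lie to the right in both genotypes, and most oxidation members lie to the left, with red points further left for *Hadh*, *Lpin1*, *Scd2* and *Elovl6*.

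Of the 15 oxidation members, 11 fell and 4 rose in control cells, and all 15 passed the test, with a median log2 fold change of -0.87 (all genes, 0.01), where 67.7% of all genes were called and 34.8% were lower. With the retained-intron share as a covariate the control calls of *Acadl*, *Decr1* and *Eci1* were lost, while calls over all genes went from 9637 to 8060. The *Decr1* call was also lost in libraries thinned to equal totals. In CtslΔTEC cells 11 fell and 1 rose, and the median was -1.15 (all genes, -0.06), where 71.2% of all genes were called and 38.2% were lower. Cell markers moved with stimulation too. In control cells double-positive thymocyte markers summed to 215 to 272 TPM before and 59.8 and 59.9 TPM after. Erythroid markers summed to 189 to 318 TPM before and 34.5 and 34.8 TPM after. The part of these markers in the oxidation result was not tested. *Hadh*, the mitochondrial short-chain 3-hydroxyacyl-CoA dehydrogenase, fell furthest, from 44.1, 47.7, 43.6 and 51.8 CPM to 8.40 and 5.49 CPM in control cells, a log2 fold change of -2.78 ± 0.15 (adjusted p = 6.48e-10). The CtslΔTEC values were 39.8, 42.1, 40.7, 42.2 and 43.1 CPM before and 1.94 and 2.14 CPM after stimulation, a log2 fold change of -4.28 ± 0.17 (adjusted p = 1.99e-11). Every stimulated library was below every unstimulated one. *Cpt1a*, the gate of the carnitine shuttle, was 36.8, 62.6, 61.1 and 52.9 CPM in unstimulated and 22.1 and 17.6 CPM in stimulated control cells (log2 fold change -1.40 ± 0.27, adjusted p = 0.000364). In CtslΔTEC cells it was 54.3, 79.9, 71.2, 45.5 and 76.7 CPM before and 10.5 and 16.4 CPM after (log2 fold change -2.21 ± 0.28, adjusted p = 4.7e-06). *Cpt1a* also varied widely among unstimulated mice. *Acads*, the short-chain acyl-CoA dehydrogenase, was 24.9, 30.7, 31.3 and 35.2 CPM before and 12.1 and 10.5 CPM after stimulation in control cells (log2 fold change -1.40 ± 0.15, adjusted p = 9.45e-07), and *Acadm*, *Cpt2*, *Hadhb*, *Acaa1a* and *Acaa2* were lower in both genotypes too. The exception in the shuttle was its translocase *Slc25a20*, which went from 26.5, 27.8, 29.0 and 34.8 CPM to 87.7 and 77.8 CPM in control cells, a log2 fold change of 1.53 ± 0.11 (adjusted p = 1.39e-08), and rose by 1.64 ± 0.10 (adjusted p = 2.53e-09) in CtslΔTEC cells.

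The strongest rises were in lipid handling and triglyceride synthesis. *Mgll*, the lipase that splits monoacylglycerol, had 0 to 9 counts in each unstimulated library and 101 and 387 counts in the stimulated control libraries. This was 0.117, 0.142, 0 and 0.169 CPM before and 13.04 and 14.8 CPM after stimulation in control cells, and 0.229, 0.147, 0.0750, 0.273 and 0.127 CPM before and 3.88 and 7.89 CPM after in CtslΔTEC cells. The fitted log2 fold changes of 6.96 ± 0.46 and 5.12 ± 0.41 (adjusted p = 5.53e-09 and 3.06e-08) rest on these few starting counts. *Dgat2*, one of the enzymes that complete triglyceride, was 0.528, 0.780, 0.525 and 0.282 CPM before and 12.4 and 8.81 CPM after stimulation in control cells (log2 fold change 4.37 ± 0.33, adjusted p = 2.14e-08). The corresponding CtslΔTEC values were 0.254, 0.323, 0.188, 0.213 and 0.456 and 7.68 and 9.42 CPM (log2 fold change 4.91 ± 0.32, adjusted p = 2.84e-09). *Dgat1*, which catalyses the same reaction, stayed within 17.5 to 21.8 CPM in all libraries and did not pass either test. *Fabp5*, a fatty acid binding protein whose gene has near-identical processed copies that may share its reads, was 4.14, 5.25, 4.57 and 7.35 CPM before and 51.4 and 32.6 CPM after stimulation in control cells (log2 fold change 3.01 ± 0.24, adjusted p = 3.76e-08), and 5.56, 3.93, 3.64, 3.95 and 3.09 CPM and 33.6 and 36.8 CPM in CtslΔTEC cells (log2 fold change 3.18 ± 0.22, adjusted p = 7.8e-09). *Acsl3* and *Acsl4*, which activate fatty acids to acyl-CoA, rose with it. *Acsl3* went from 16.5, 16.3, 13.04 and 11.4 CPM to 58.6 and 44.2 CPM in control cells (log2 fold change 1.88 ± 0.16, adjusted p = 9.12e-08). *Acsl1* did not pass the test in either genotype.

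The promoter windows of the synthesis gene that rose most, of the member that rose most and of the oxidation gene that fell most are shown here, since these 3 members mark the extremes of the response. RefSeq windows of 250 bases before to 50 after the start (GRCm38.p6) were matched for 35 of the 44 members. Capitals mark matches, on either strand, to the CCAAT box (CCAAT), the E-box (CACGTG) or the EGR motif (GCGNGGGCG), and where matches overlap they run together. The *Fasn* window lies on the minus strand at chr11:120824498-120824797, the *Mgll* window on the plus strand at chr6:88724162-88724461 and the *Hadh* window on the minus strand at chr3:131272052-131272351, and each spans the annotated start of its gene.
Fasn: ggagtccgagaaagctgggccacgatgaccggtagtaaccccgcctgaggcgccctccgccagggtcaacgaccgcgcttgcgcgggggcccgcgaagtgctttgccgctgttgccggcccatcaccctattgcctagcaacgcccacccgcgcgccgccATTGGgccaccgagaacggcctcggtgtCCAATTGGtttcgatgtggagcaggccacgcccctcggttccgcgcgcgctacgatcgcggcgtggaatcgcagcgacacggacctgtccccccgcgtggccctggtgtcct
Mgll: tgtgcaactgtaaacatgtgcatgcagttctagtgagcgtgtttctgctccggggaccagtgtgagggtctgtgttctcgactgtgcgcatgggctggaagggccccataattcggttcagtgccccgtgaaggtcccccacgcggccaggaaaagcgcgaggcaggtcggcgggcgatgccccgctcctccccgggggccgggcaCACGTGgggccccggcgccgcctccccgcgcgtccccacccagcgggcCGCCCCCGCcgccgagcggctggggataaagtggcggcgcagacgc
Hadh: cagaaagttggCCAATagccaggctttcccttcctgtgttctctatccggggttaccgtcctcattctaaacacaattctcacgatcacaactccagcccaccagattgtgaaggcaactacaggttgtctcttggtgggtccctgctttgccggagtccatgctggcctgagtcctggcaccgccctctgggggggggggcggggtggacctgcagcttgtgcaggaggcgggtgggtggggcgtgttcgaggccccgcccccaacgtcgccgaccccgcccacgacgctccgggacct
The *Fasn* window held 3 matches to the CCAAT box, 2 of which share bases, the *Mgll* window an E-box and an EGR motif, and the *Hadh* window 1 CCAAT box. In the first window of each member, 12 of 35 held a CCAAT box, against 37.4% of 32851 windows of this length. The E-box was found in 3 members (7.15% of all windows) and the EGR motif in 4 (5.55%). These matches are descriptions of letters only.

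Summed over members, transcripts for synthesis and oxidation were close to equal after stimulation. The 11 synthesis members summed to 362 ± 32.6 TPM (SD, n = 4) in unstimulated control cells and 482 ± 12.8 TPM (n = 2) in stimulated ones. The 15 oxidation members went from 636 ± 18.4 TPM to 436 ± 9.73 TPM. In CtslΔTEC cells synthesis was 387 ± 10.3 TPM (n = 5) before and 390 ± 21.3 TPM (n = 2) after stimulation, while oxidation went from 675 ± 17.1 TPM to 370 ± 13.4 TPM. The log2 ratio of synthesis to oxidation was -0.82 ± 0.15 in unstimulated control, -0.80 ± 0.07 in unstimulated CtslΔTEC, 0.14 ± 0.01 in stimulated control and 0.08 ± 0.03 in stimulated CtslΔTEC cells. Between unstimulated and stimulated libraries the synthesis sums did not overlap in control cells, with 314.5 to 384.5 TPM before and 473 and 491 TPM after. They overlapped in CtslΔTEC cells, with 374 to 399.6 TPM before and 375 and 405 TPM after, whereas the oxidation sums did not overlap in either genotype. After stimulation both sums were lower in CtslΔTEC than in control cells, with means that dropped by 19.1% for synthesis and 15.3% for oxidation, without overlap of the 2 mice each. These sums were not tested. The value of the ratio depends on length scaling, and on CPM it was 0.34, 0.36, 1.26 and 1.18 in the same order of groups.

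**Figure D2:**
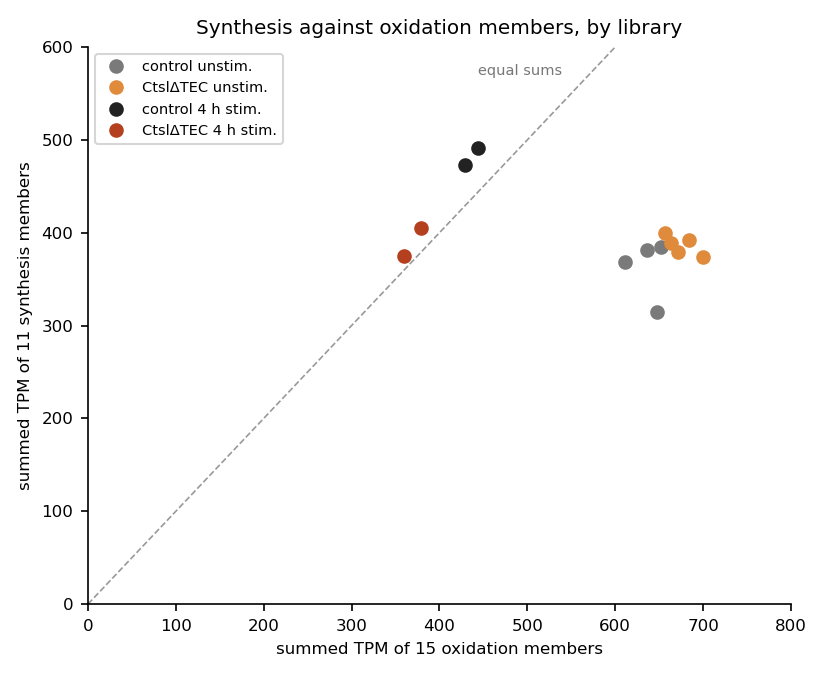
Summed TPM of the 15 oxidation members (horizontal) and the 11 synthesis members (vertical), one point per library, coloured by group, with a dashed line where both sums are equal. Unstimulated libraries lie far to the right of the line, and the 4 stimulated ones lie just above it, with CtslΔTEC lower on both axes than control.

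After stimulation, 13 of 43 members tested were lower in CtslΔTEC than in control cells and none was called higher, where 10.6% of all genes were called lower and 2.78% higher (13.3% in either direction). These were 4 of 10 tested synthesis members, 7 of 15 oxidation members and 2 of 10 glycerolipid members (20%), and 2 of the other glycerolipid members had positive values that did not pass. With an offset for transcript length 12 members were called lower and *Gpat4*, an acyltransferase of the first glycerolipid step, higher at 0.384 (adjusted p = 0.0269), with 43.3 to 44.8 TPM in control and 58.4 to 59.4 TPM in CtslΔTEC cells. The median log2 fold change of the 43 members was -0.32, against -0.055 over all genes, and 39 of the 43 values were negative. In 30 of 43 members both CtslΔTEC libraries were below both control libraries, against 31.0% of all genes tested, and in 2 both were above (18.6% of all genes, with 49.6% apart in either direction).

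*Hadh* showed the largest difference, with 8.40 and 5.49 CPM in control and 1.94 and 2.14 CPM in CtslΔTEC cells, a log2 fold change of -1.67 ± 0.20 (adjusted p = 0.000205). Next among the called members was *Lpin1*, the phosphatidate phosphatase that yields diacylglycerol, with 37.3 and 34.6 CPM against 15.3 and 13.1 CPM (log2 fold change -1.33 ± 0.15, adjusted p = 0.000124). *Elovl6*, which lengthens palmitate to stearate, was 16.8 and 11.9 CPM in control and 6.26 and 5.44 CPM in CtslΔTEC cells (log2 fold change -1.26 ± 0.19, adjusted p = 0.00118). The groups did not overlap in any of these. *Scd2*, which desaturates stearate, was 60.8 and 61.4 CPM against 30.2 and 27.2 CPM (log2 fold change -1.08 ± 0.20, adjusted p = 0.00391). *Acly*, the source of cytosolic acetyl-CoA, was 269.7 and 257 CPM against 188 and 179.8 CPM (log2 fold change -0.51 ± 0.10, adjusted p = 0.0071). *Elovl5*, an elongase of polyunsaturated chains, was 122 and 93.5 CPM against 75.3 and 65.4 CPM (log2 fold change -0.60 ± 0.16, adjusted p = 0.0262). *Fasn*, which acts between *Acly* and the elongases, had 763 and 725 CPM against 616 and 676 CPM and did not pass (log2 fold change -0.19 ± 0.11, adjusted p = 0.314).

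Among the oxidation members, the thiolase *Acaa1a* of peroxisomes was 45.2 and 47.5 CPM in control and 27.0 and 33.0 CPM in CtslΔTEC cells (log2 fold change -0.61 ± 0.12, adjusted p = 0.00489). Its close copy *Acaa1b* was at most 0.0284 TPM in any library. *Cpt2*, which returns acyl groups to CoA inside mitochondria, was 3.75 and 2.90 CPM against 2.29 and 1.47 CPM (log2 fold change -0.80 ± 0.24, adjusted p = 0.0513), and its difference without CtslΔTEC mouse 7 was -0.501 (adjusted p = 0.458). The acyl-CoA dehydrogenases *Acadm* and *Acads*, for medium and short chains, had log2 fold changes of -0.55 ± 0.17 (adjusted p = 0.0538) and -0.73 ± 0.18 (adjusted p = 0.019), and the *Acadm* value was -0.236 (adjusted p = 0.429) without control mouse 5 and -0.881 (adjusted p = 0.00156) without control mouse 6. For *Acadm* the control values were 22.0 and 14.1 CPM and the CtslΔTEC values 11.9 and 11.9 CPM, and for *Acads* they were 12.1 and 10.5 CPM and 7.06 and 6.36 CPM. Both enzymes had no overlap between genotypes. *Eci1* and *Decr1*, which let unsaturated chains enter the cycle, had log2 fold changes of -0.80 ± 0.18 (adjusted p = 0.014) and -1.14 ± 0.29 (adjusted p = 0.0223). *Eci1* was 10.3 and 7.32 CPM against 5.38 and 4.53 CPM. *Decr1* was 5.81 and 7.29 CPM against 3.18 and 2.81 CPM, but per length it overlapped, with 2.48 and 4.93 TPM in control and 3.66 and 2.23 TPM in CtslΔTEC cells. With an offset for transcript length the *Decr1* difference was -0.39 (adjusted p = 0.642) and the *Cpt2* difference -0.22 (adjusted p = 0.678). The long-chain enzymes *Acadl*, *Hadha* and *Hadhb* did not pass, with log2 fold changes of -0.12, -0.11 and -0.09.

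*Lpcat4*, a lysophospholipid acyltransferase, was the other glycerolipid member called, with 14.9 and 17.5 CPM in control and 12.7 and 9.36 CPM in CtslΔTEC cells (log2 fold change -0.56 ± 0.14, adjusted p = 0.0219). Without CtslΔTEC mouse 7 its difference was -0.367 (adjusted p = 0.206). *Mgll* and *Acaca* fell just outside the threshold. *Mgll* was 13.04 and 14.8 CPM against 3.88 and 7.89 CPM (log2 fold change -1.22 ± 0.43, adjusted p = 0.102), and *Acaca* was 66.6 and 44.7 CPM against 34.9 and 35.8 CPM (log2 fold change -0.63 ± 0.23, adjusted p = 0.116). *Srebf1*, *Cpt1a* and *Fabp5* had log2 fold changes of -0.13, -0.52 and -0.23 and did not pass. For *Srebf1* the values were 156 and 172 CPM in control and 149 and 149 CPM in CtslΔTEC cells.

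The 10 early activation genes summed to between 7800 and 10200 TPM in stimulated control and 11000 to 11200 TPM in stimulated CtslΔTEC cells. *Nr4a1* and *Cd69* were the highest of them by CPM. Of these 10 genes, 1 was called between genotypes, *Il2*, the T cell growth factor, with 53.1 and 49.8 CPM in control and 3.0 and 5.57 CPM in CtslΔTEC cells (log2 fold change -3.55 ± 0.34, adjusted p = 5.86e-05). *Irf4* was 2041 and 2093 CPM against 1573 and 1504 CPM and did not pass (log2 fold change -0.42 ± 0.29, adjusted p = 0.443), and the other 8 had positive values that did not pass. The part of activation in the lipid result was not tested. Retained-intron transcripts took a share of the counts that was 5.99% and 7.63% in stimulated control and 7.94% and 8.55% in stimulated CtslΔTEC cells. With that share as a covariate calls over all genes went from 1900 to 756, and 6 members were called (*Scd2*, *Elovl6*, *Lpin1*, *Lpcat4*, *Hadh* and *Acaa1a*), all lower. The 12 double-positive thymocyte markers summed to 59.8 and 59.9 TPM in stimulated control and 92.2 and 99.7 TPM in stimulated CtslΔTEC cells, with 3 of 12 called higher, and their part in the result was not tested. Without control mouse 5, the shallowest library, 8 members were called, and without CtslΔTEC mouse 7 also 8, while the other 11 libraries left out in turn gave 12 to 17. Without control mouse 5 the calls of *Elovl5*, *Cpt2*, *Acadm*, *Acads* and *Eci1* were lost. Without CtslΔTEC mouse 7 the same 5 and *Lpcat4* and *Decr1* were lost, without control mouse 6 *Lpcat4* and *Decr1*, and without CtslΔTEC mouse 6 *Acadm*. With 2 mice against 2 an exact permutation test cannot go below p = 0.333, and the spread was taken across the 13 libraries. With the fit restricted to the 4 stimulated libraries, 10 members were called, all lower, of which 8 were among the 13. *Lpcat4*, *Cpt2*, *Acadm*, *Acads* and *Eci1* were lost there, and *Acaca* and *Mgll* gained.

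**Figure D3:**
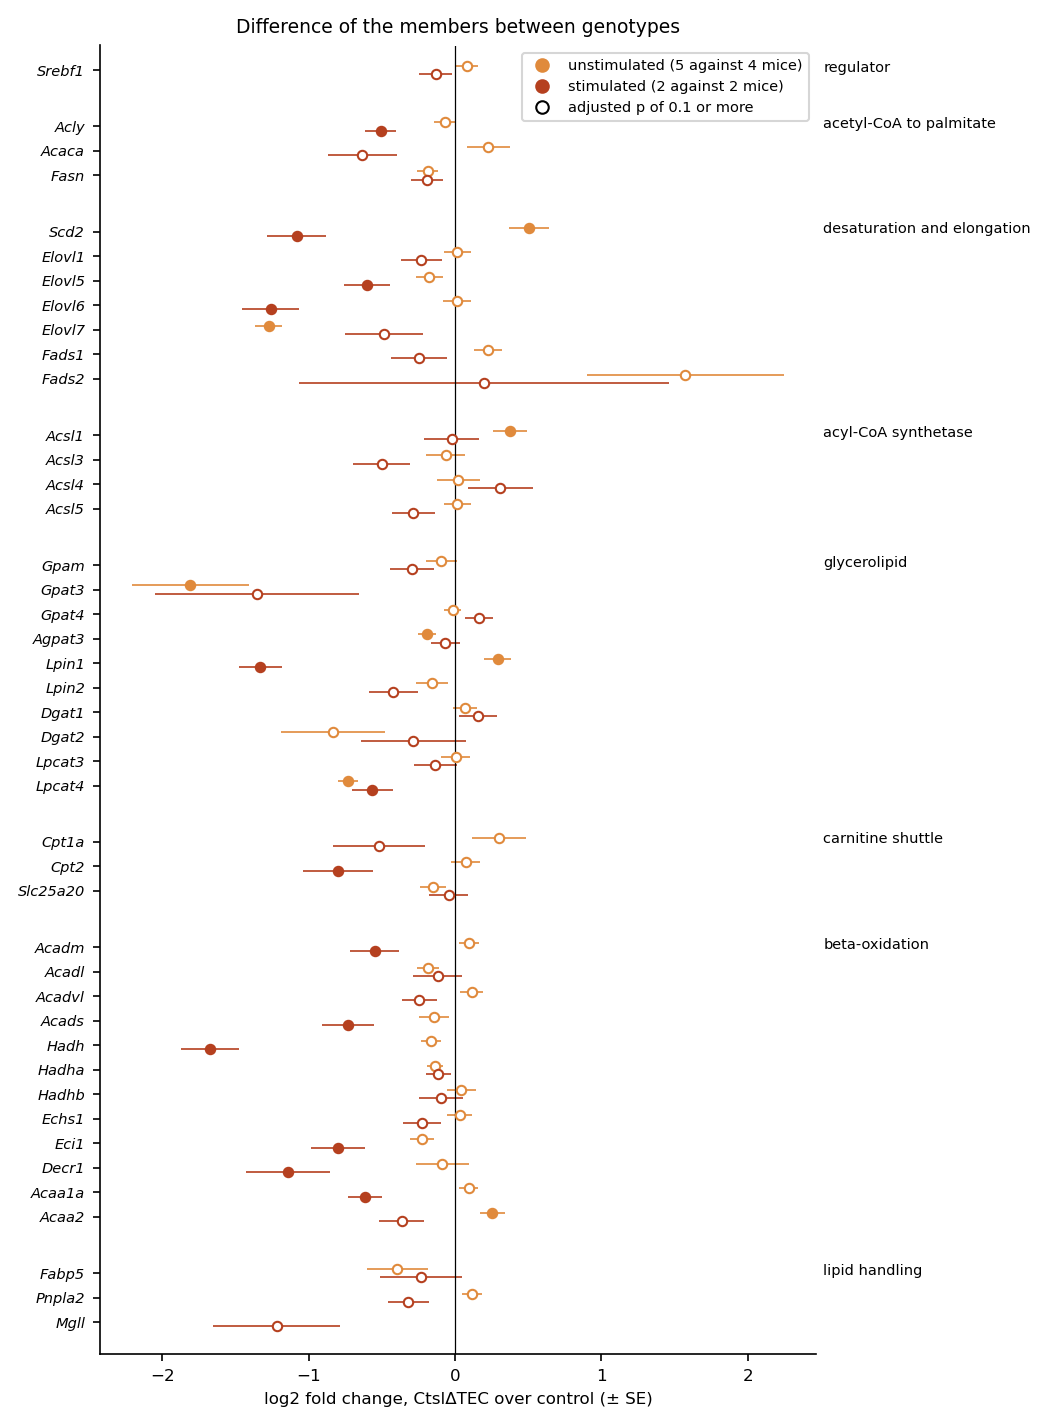
Log2 fold change of members, CtslΔTEC over control, with SE (bars), in unstimulated (orange) and stimulated cells (red), ordered by role, where open points did not pass an adjusted p of 0.1. The filled red points all lie left of 0, and *Scd2*, *Lpin1* and *Acaa2* have filled orange points to the right of 0.

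Before stimulation, members were called in both directions. Of 42 members tested, 8 passed, 4 higher and 4 lower in CtslΔTEC cells, where 14.8% of all 13152 genes were called (6.42% higher and 8.36% lower). The median over members was 0.01, the same as over all genes, and the share of members called was near that of all genes. In 2 of 42 members all CtslΔTEC mice were above all control mice (5.79% of all genes) and in 7 all were below (8.06% of all genes, with 13.9% apart in either direction).

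*Elovl7*, an elongase of long saturated chains, differed most firmly, with 16.6, 17.8, 14.5 and 14.8 CPM in control and 6.17, 6.37, 6.75, 6.56 and 6.99 CPM in CtslΔTEC mice, a log2 fold change of -1.27 ± 0.09 (adjusted p = 6.94e-06). *Lpcat4* followed with 40.7, 40.7, 45.0 and 42.2 CPM against 27.1, 25.1, 24.4, 24.0 and 25.9 CPM (log2 fold change -0.73 ± 0.07, adjusted p = 4.38e-05). For both, every CtslΔTEC mouse was below every control mouse, and the two-sided exact permutation test on log2 CPM gave p = 0.00794, the smallest that 5 against 4 mice allow. *Gpat3*, which begins glycerolipid synthesis at the endoplasmic reticulum, was 0.880, 3.62, 1.54 and 1.66 CPM against 0.305, 0.558, 0.413, 0.698 and 0.735 CPM (log2 fold change -1.81 ± 0.40, adjusted p = 0.0127). It was a low gene, with 11 to 29 counts per library in CtslΔTEC mice. *Agpat3* was 175, 177, 199 and 182 CPM in control and 166, 152, 156, 162 and 164 CPM in CtslΔTEC mice (log2 fold change -0.19 ± 0.06, adjusted p = 0.0658), a small difference without overlap on CPM. Per length it overlapped, with 93.2 to 115 TPM against 80.6 to 113 TPM, and with an offset for transcript length it did not pass (-0.170, adjusted p = 0.311).

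*Scd2* went the other way, with 246, 228, 258 and 176 CPM in control and 265, 390.0, 279, 304 and 369 CPM in CtslΔTEC mice (log2 fold change 0.50 ± 0.14, adjusted p = 0.0363). *Acsl1*, an acyl-CoA synthetase, was 7.45, 7.19, 5.85 and 7.18 CPM against 8.38, 9.57, 9.79, 7.59 and 9.48 CPM (log2 fold change 0.38 ± 0.12, adjusted p = 0.0626). These groups did not overlap on CPM, but *Acsl1* overlapped per length, with 2.47 to 3.65 TPM in control and 2.92 to 4.74 TPM in CtslΔTEC mice, and its difference with an offset for transcript length was 0.239 (adjusted p = 0.445). *Lpin1* and *Acaa2*, the mitochondrial thiolase, were also called higher but overlapped between genotypes. *Lpin1* was 45.0, 52.0, 42.4 and 43.9 CPM against 58.6, 48.2, 61.4, 51.3 and 60.03 CPM (log2 fold change 0.29 ± 0.09, adjusted p = 0.068), and *Acaa2* was 65.9, 61.0, 69.0 and 80.8 CPM against 87.4, 76.2, 82.8, 86.8 and 78.0 CPM (log2 fold change 0.25 ± 0.08, adjusted p = 0.0802). *Hadh* had no overlap either, yet its difference was small and did not pass across all genes (log2 fold change -0.17 ± 0.07, adjusted p = 0.158, exact permutation p = 0.00794). *Fasn*, *Acaca* and *Cpt1a*, with log2 fold changes of -0.19, 0.23 and 0.30, and *Srebf1*, with 0.08, did not pass.

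Several features moved with genotype in the unstimulated cells. Y-linked transcripts were present in all 5 CtslΔTEC mice and in 1 of 4 control mice, so sex and genotype were nearly aligned, and with these transcripts as a covariate 2 members, *Elovl7* and *Lpcat4*, were called, while calls over all genes went from 1943 to 429. Of the members that lost their calls, *Acsl1* was 0.609 and *Agpat3* -0.312, farther from 0 than without the covariate, and *Scd2* was 0.286. Retained-intron transcripts took 5.13% to 5.77% of counts in control and 5.59% to 6.59% in CtslΔTEC mice. With that share as a covariate *Scd2* was 0.263 (adjusted p = 0.537) and *Gpat3* -1.171 (adjusted p = 0.407), and the calls of both and of *Acsl1*, *Agpat3* and *Acaa2* were lost. Double-positive thymocyte markers summed to 215 to 272 TPM in control and 504 to 600 TPM in CtslΔTEC mice, with 8 of the 11 tested called higher, and *Cd8a* was 2.15 to 2.42 TPM against 12.6 to 17.9 TPM. Myeloid markers summed to 9.26 to 14.9 TPM in control and 12.7 to 18.9 TPM in CtslΔTEC mice, with 3 of 9 called higher and 1 lower. The part of these cell markers in the result was not tested. With date as a factor 11 members were called, and among the mice of the second date alone 8, of which 6 were among the 8 called over both dates. There, *Acsl1* and *Lpin1* were lost and *Fasn* and *Acadvl* gained, and the *Lpin1* difference was 0.193. Without control mouse 3 there were 5, and without CtslΔTEC mouse 3 or mouse 5 there were 4. *Agpat3*, *Acsl1*, *Lpin1* and *Acaa2* each lost their call without at least 1 mouse of each genotype.

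The response itself differed between genotypes for 8 of 43 members by the interaction term, all with a more negative response in CtslΔTEC cells, where 4.88% of all genes had a lower and 1.13% a higher response (6.01% in either direction). They were *Acly*, *Scd2* and *Elovl6* on the synthesis side, *Acadm*, *Hadh*, *Acaa1a* and *Acaa2* on the oxidation side, and *Lpin1*. The median interaction was -0.45 over the 10 synthesis members, -0.58 over the 15 oxidation members and 0.11 over the 10 glycerolipid members, with -0.065 over all genes. With an offset for transcript length 7 were called, 6 lower and *Gpat4* higher at 0.389 (adjusted p = 0.0999). This comparison uses the same stimulated libraries as the one between genotypes above. It also carries a shift in sex, as does the response of CtslΔTEC cells. Y-linked transcripts summed to 171 to 242 TPM in unstimulated CtslΔTEC mice, but to 2.61 and 231 TPM in stimulated ones. In control mice they summed to 2.11 to 181 TPM before and 1.9 and 185 TPM after. With these transcripts as a covariate 9 members were called, all lower, with *Acaa2* lost and *Cpt2* and *Eci1* gained. Calls over all genes went from 856 to 674.

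The largest interaction among the 8 was that of *Lpin1*, at -1.62 ± 0.17 (adjusted p = 0.000641). Its response was -0.31 ± 0.12 in control and -1.93 ± 0.13 in CtslΔTEC cells on the log2 scale. The control value lost its call with the retained-intron share as a covariate (-0.092), in libraries thinned to equal totals and without stimulated control mouse 6. *Scd2* had an interaction of -1.58 ± 0.24 (adjusted p = 0.00389), with responses of -1.85 ± 0.18 and -3.43 ± 0.20. *Lpin1* and *Scd2* were called higher in CtslΔTEC cells before stimulation and lower after it, but the call before stimulation was lost for both with the Y-linked covariate and for *Scd2* with the retained-intron share. The interaction of *Hadh* was -1.51 ± 0.22 (adjusted p = 0.00389) and that of *Elovl6* -1.27 ± 0.22 (adjusted p = 0.00864). *Acaa1a* had an interaction of -0.70 ± 0.14 (adjusted p = 0.0159). *Acly*, *Acadm* and *Acaa2*, at -0.43 ± 0.12 (adjusted p = 0.0739), -0.64 ± 0.19 (adjusted p = 0.0886) and -0.62 ± 0.18 (adjusted p = 0.0805), were near the threshold and lost their calls under 18, 18 and 17 of the 24 other settings. The *Acadm* interaction was -0.329 (adjusted p = 0.379) without stimulated control mouse 5 and -0.974 (adjusted p = 0.00379) without control mouse 6. *Mgll*, at -1.83 ± 0.69 (adjusted p = 0.191), did not pass. The count of 8 became 13 without stimulated control mouse 6 and 5 without stimulated control mouse 5, and it was also 5 without unstimulated control mouse 1 or mouse 3 and without CtslΔTEC mouse 2, 3, 4 or 5.

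**Figure D4:**
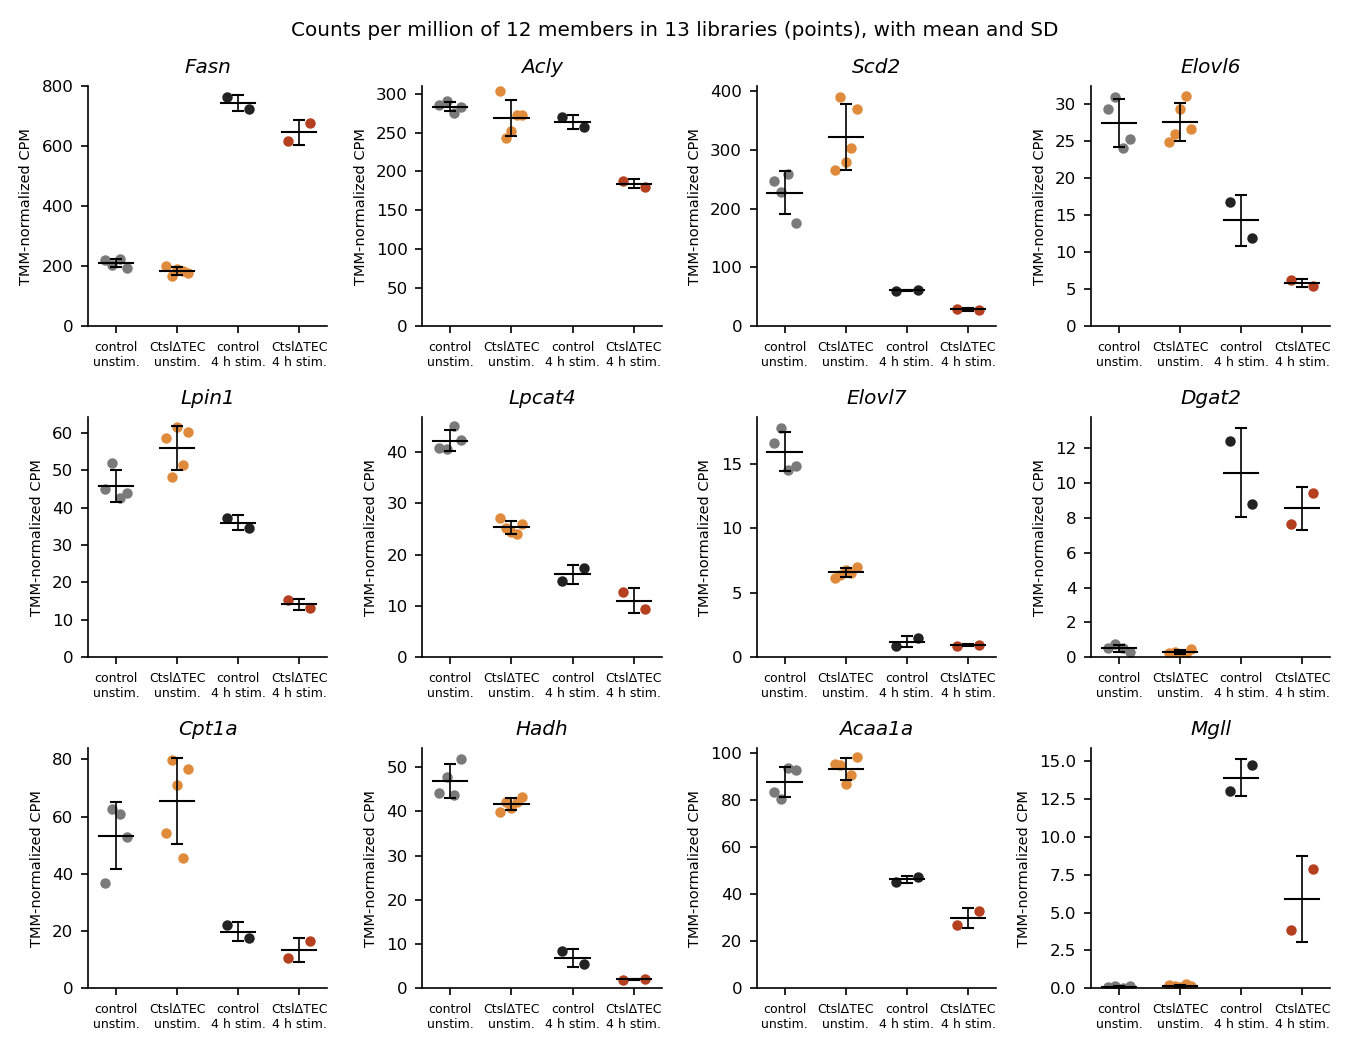
TMM-normalized CPM of 12 members in the 13 libraries (points), by genotype and stimulation, with the mean (line) and SD (bars) of each group on axes from 0. *Scd2* and *Lpin1* are higher in CtslΔTEC than in control before stimulation and lower after it, *Hadh*, *Elovl6* and *Acaa1a* separate mainly after it, and *Elovl7* and *Lpcat4* are lower in CtslΔTEC from the start.

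Transcript shares showed changes that gene totals hid. *Agpat3* did not pass the test for a response in either genotype, yet its coding transcript *Agpat3-202* went from 20.3% to 32.6% of *Agpat3* TPM in unstimulated control mice to 42.9% and 45.5% in stimulated ones. *Agpat3-204* went from 32.0% to 41.0% before to 18.5% and 19.4% after. In CtslΔTEC mice *Agpat3-202* was 18.6% to 25.8% before and 44.02% and 48.7% after stimulation. The shift was thus seen in both genotypes without overlap, and with an offset for transcript length the response of the *Agpat3* gene in control cells was 0.42 (adjusted p = 0.00572).

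*Hadh* was carried by its coding transcript *Hadh-201* at 97.7% or more of TPM in all libraries except the stimulated CtslΔTEC ones, where it was 83.3% and 87.9% and the retained-intron transcript *Hadh-202* made up 12.1% and 16.7%. The TPM of *Hadh-201* was 4.38 and 6.17 in stimulated control and 1.18 and 1.19 in stimulated CtslΔTEC cells, so the coding form differed as the gene did. *Decr1-201*, the coding form of *Decr1*, was 2.48 and 3.32 TPM in stimulated control and 1.17 and 1.22 TPM in stimulated CtslΔTEC cells, while its noncoding *Decr1-202* and *Decr1-203* took 24.3% and 46.2%, and 20.5% and 23.2%, of the gene in the latter. In *Srebf1* the coding *Srebf1-201* held 39.8% to 48.8% of TPM in unstimulated control and 35.6% and 41.1% in stimulated control cells. *Acaa1a-201* held 62.6% and 63.3% in stimulated control and 46.3% and 48.7% in stimulated CtslΔTEC cells, where the retained-intron *Acaa1a-209* held 25.2% and 26.6%. In *Acaa1a* the coding form was thus lower by TPM as well, at 22.7 and 24.7 against 9.34 and 10.8. Shares of short transcripts are estimates that kallisto divides among overlapping forms.

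Other genes of the same pathways, taken from written lists without the 44 members, were examined in the same fits. These lists were also chosen with earlier results of these data known, so they are no independent check of the members. The synthesis list also holds SREBP regulators such as *Srebf2* and *Mbtps1*. Of its 25 tested genes, 8 (32.0%) were lower in stimulated CtslΔTEC cells and none higher, where 10.6% of all genes were lower and 2.78% higher. Of 32 oxidation genes, 9 (28.1%) were lower and none higher, and of 35 glycerolipid and lipid storage genes, 7 (20%) were lower and none higher. Their medians were -0.27, -0.43 and -0.046, against -0.055 over all genes, so the glycerolipid median was near that of all genes. In synthesis the calls with the smallest p were *Tecr* (log2 fold change -1.06 ± 0.15, adjusted p = 0.000772), the last enzyme of the elongation cycle, *Slc25a1* (-0.77 ± 0.13, adjusted p = 0.00266), the carrier that exports citrate from mitochondria, and *Mid1ip1* (-1.64 ± 0.32, adjusted p = 0.00508), a protein that promotes acetyl-CoA carboxylase. *Tecr* was 119 and 91.5 CPM in control and 45.0 and 54.8 CPM in CtslΔTEC cells. In oxidation they were *Hsd17b4* (-0.90 ± 0.11, adjusted p = 0.000277), a peroxisomal enzyme, *Acad10* (-0.85 ± 0.18, adjusted p = 0.00846) and *Decr2* (-0.57 ± 0.12, adjusted p = 0.00891), and in glycerolipids *Lpcat1* (-0.66 ± 0.14, adjusted p = 0.00936), *Plin3* (-1.24 ± 0.29, adjusted p = 0.015) and *Mboat7* (-0.45 ± 0.11, adjusted p = 0.0185). *Hsd17b4* was 38.0 and 39.4 CPM in control and 18.7 and 22.2 CPM in CtslΔTEC cells.

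In unstimulated cells, 1 of 30 oxidation (3.33%) and 4 of 35 glycerolipid genes (11.4%) passed, where 14.8% of all genes were called. On the synthesis list with its SREBP regulators, 7 of 25 genes (28%) passed, 3 higher and 4 lower in CtslΔTEC cells. *Scd4*, a neighbour and paralog of *Scd2*, was among them with 2.44, 2.91, 3.07 and 2.76 CPM in control and 4.85, 5.55, 4.62, 4.34 and 5.65 CPM in CtslΔTEC mice (log2 fold change 0.85 ± 0.14, adjusted p = 0.00223). *Scd4* also had an interaction of -1.87 ± 0.36 (adjusted p = 0.0142), so it shared the direction of *Scd2* before and after stimulation, although reads from these similar genes may be divided between them. *Mbtps1*, a protease that activates SREBP, was higher (0.31 ± 0.06, adjusted p = 0.00529), and *Srebf2*, which encodes SREBP-2, was lower (-0.37 ± 0.07, adjusted p = 0.00722). *Decr2* was the oxidation gene called (-0.40 ± 0.07, adjusted p = 0.00209), and *Abhd5*, an activator of triglyceride lipase, led the glycerolipid list (-0.53 ± 0.10, adjusted p = 0.00651), followed by *Mboat1* (-0.51 ± 0.11, adjusted p = 0.00978) and *Plin3* (-0.39 ± 0.09, adjusted p = 0.013). By the interaction term 6 of 25 synthesis (24.0%), 4 of 32 oxidation (12.5%) and 2 of 35 glycerolipid genes (5.71%) passed, all with a more negative response in CtslΔTEC cells, where 4.88% of all genes had a lower response and 6.01% were called in either direction. The glycerolipid share was near that of all genes. Among those called were *Tecr* (-0.97 ± 0.18, adjusted p = 0.0136), *Mid1ip1* (-1.84 ± 0.37, adjusted p = 0.0169), *Hsd17b4* (-0.77 ± 0.13, adjusted p = 0.00833), *Acad10* (-0.98 ± 0.20, adjusted p = 0.0186), *Mlycd* (-0.99 ± 0.25, adjusted p = 0.0472), *Lpcat1* (-0.65 ± 0.17, adjusted p = 0.0476) and *Mboat7* (-0.46 ± 0.13, adjusted p = 0.0731).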

How the data were processed

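Per the labels, M2 CD4SP thymocytes were sorted from 13 mice and 1 library was made per mouse. Reads were pseudoaligned by the authors in kallisto 0.48, to transcripts of Ensembl 106, and the deposited values are an estimated count and a TPM value for every transcript, with no normalization of the counts between libraries. Estimated counts and TPM were summed to genes through GENCODE M21 (GRCm38), which named 116397 of 117497 transcripts. The other 1100, with no more than 0.461% of any library's counts, were left out. Whether the RNA was selected by poly(A), as labelled, or depleted of rRNA, as the methods state, is open.

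Gene counts were rounded to whole numbers and tested with edgeR 4.0.16 in R 4.3.3 by the quasi-likelihood test, with TMM factors, filterByExpr and Benjamini-Hochberg adjustment over all genes tested, at a threshold of 0.1. The 9 unstimulated libraries were fitted on their own and the other comparisons in a 4-group model of all 13. Standard errors were derived from the fold change and the F statistic. Single members were compared over the 126 splits of 9 mice by a two-sided exact permutation test on log2 CPM (prior count 2). DESeq2 1.42.0, other scalings, filters, covariates and fits without 1 mouse were alternatives. On simulated data with 200 genes changed 2-fold among 13370, 13726 and 13711 genes, edgeR recovered 200 in the unstimulated, 179 in the stimulated and 130 in the interaction comparison, with 28, 20 and 10 false calls. The simulation gave all genes the same dispersion, changed only well-counted genes and held no effect of sex or date. These rates therefore do not carry over to members at few counts. The labels give mouse numbers and no culture or litter, so p-values measure the spread between these mice, and counts cover sampling error only.

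The 44 members and the other gene lists were chosen with earlier results of these data known. Named members are all those called between genotypes or in the interaction, the 10 with the largest response in control cells, and *Srebf1*, *Acaca*, *Fasn*, *Scd1*, *Scd2*, *Cpt1a*, *Hadh* and *Fabp5* whatever their p. Other genes named (among them *Elovl1*, *Dgat1*, *Acadl*, *Hadha*, *Hadhb*, *Acsl4*, *Lpin2*, *Echs1*, *Gpat4*, *Fads1*, *Fads2* and *Acadvl*), and *Il2* and *Irf4*, were chosen after their values were seen. Named genes of the other lists are up to 3 with the smallest p among those called per genotype comparison. Promoter windows are from RefSeq. Flow cytometry and receptor sequencing are not analysed here.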

Additional observations from a re-analysis of the deposited data

Results flagged for a closer look

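In unstimulated cells, 3 of the 84 groups of values searched held a mouse far from the other mice of its group, where about 4.20 would be set apart by chance. The log2 CPM of *Acsl1* was 2.59 in control mouse 3 and 2.88 to 2.94 in the other control mice. *Acsl1* was among the members called higher in CtslΔTEC cells, and its call was lost without this mouse and under 11 other alternatives. In control mouse 4, the only control mouse of the earlier date, *Lpin2* was 4.72 against 4.96 to 4.99, and *Echs1* was 5.39 against 5.10 to 5.13.

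The effect of genotype differed between stimulated and unstimulated cells by the interaction term for 8 members, with log2 differences of -0.43 for *Acly*, -1.58 for *Scd2*, -1.27 for *Elovl6*, -1.62 for *Lpin1*, -0.64 for *Acadm*, -1.51 for *Hadh*, -0.70 for *Acaa1a* and -0.62 for *Acaa2*. *Scd2* and *Lpin1* were called in both states with opposite signs. *Acaa2* was called higher before stimulation, and its difference after stimulation, -0.36, did not pass the test. The stimulated libraries carry another date than the unstimulated ones, and the part of date in these differences was not tested.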

How the results depend on the processing

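Of 5147 values of single members under other settings, 4901 stayed on their side of the threshold, 167 were lost, 77 were gained and 2 reversed. Called values among the 4901 also kept their direction. Direction was compared only where the main fit or the other setting called the member, so sign changes between uncalled values are not counted. The reversals were *Agpat3* in the response of control cells with an offset for transcript length (0.416) and *Fads2* in the response of CtslΔTEC cells with the retained-intron share as a covariate (3.60). *Elovl7* and *Lpcat4* in unstimulated cells, and *Scd2*, *Elovl6*, *Lpin1*, *Hadh* and *Acaa1a* in stimulated cells and in the interaction, were called under all 24 or 25 alternatives run. In unstimulated cells the 8 calls became 4 at an adjusted p under 0.05, 2 with Y-linked genes and 4 with the retained-intron share as a covariate, and 4 to 10 when 1 mouse was left out. Calls over all genes went from 1943 to 1364, 429 and 689 under the first 3 of these. In stimulated cells the 13 calls became 6 with the retained-intron share and 8 to 17 when 1 mouse was left out, while calls over all genes went from 1900 to 756 with that share and to 966 without control mouse 5. The 8 interaction calls became 5 at an adjusted p under 0.05, with RLE factors, with at least 10 counts in every library and with the retained-intron share, and 5 to 13 when 1 mouse was left out, with 856 calls over all genes going to 471, 751, 726 and 572 under the first 4. Calls of the response were 31 to 35 in control and 32 to 35 in CtslΔTEC cells when 1 mouse was left out. Scaling by library totals alone shifted the median response of all genes in CtslΔTEC cells to -0.208, with 11 higher and 23 lower members. It also gave 12 interaction calls, beside 1033 over all genes. Other settings raised the counts too. DESeq2 called 11 members in unstimulated cells, 15 in stimulated cells and 11 in the interaction, beside 2299, 2076 and 1050 genes.

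Mouse numbers 1 to 4 recur in both unstimulated groups. Samples with the same number correlated at -0.155, 0.348, -0.097 and -0.138 in their deviations from the group means. Only number 2 correlated best with the same number in the other group, and the labels state no pairing. With the replicate block, which also leaves out CtslΔTEC mouse 5, 3 members (*Elovl7*, *Gpat3* and *Lpcat4*) and 1056 genes were called, and without that mouse alone 4 members and 1549 genes.

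The log2 ratios of synthesis to oxidation on CPM were 0.338, 0.363, 1.263 and 1.179 for unstimulated control, unstimulated CtslΔTEC, stimulated control and stimulated CtslΔTEC cells. *Acly* and *Hadha* had the highest mean TPM of their sides over all 13 libraries, though *Fasn* and *Acadvl* were higher in both stimulated groups. Without *Acly* and *Hadha* the ratios on TPM were -1.094, -1.091, 0.015 and 0.046, so the order of the stimulated genotypes depends on those members. The shallowest stimulated library, with 8085463 counts, limits what can be seen for members at a few counts, such as *Scd1*, *Fads2* and *Gpat3*.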
